A study of Mus musculus with 4 samples.

Results

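The genes of oxidative phosphorylation were taken from the gene table as every row whose symbol starts with Nduf, Uqcr, Atp5, mt-Nd, mt-Co, mt-Cy or mt-At, or with Cox followed by a digit from 4 to 8. This gave 102 of 20171 genes, of which 89 lie on nuclear chromosomes and 13 on the mitochondrial genome. The nuclear genes comprise 39 complex I genes, 8 complex III genes, 17 complex IV genes, 17 ATP synthase (complex V) genes and 8 Ndufaf genes, which encode factors that assemble complex I. Complexes were assigned by symbol. Ndufa4, now known as a complex IV subunit, and Ndufb1-ps, annotated as a noncoding RNA, therefore count under complex I. The mitochondrial genome encodes 7 subunits of complex I, 1 of complex III, 3 of complex IV and 2 of complex V. In the mm10 annotation 88 of the 89 nuclear members were found, spread over 19 chromosomes, for example Cox4i1 at chr8:120668222-120674207 (plus strand), Atp5g1 at chr11:96068852-96075670, Cox6b1 at chr7:30616861-30626151 and Cox6b2 at chr7:4751792-4753094 (all minus strand).

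Oxidative phosphorylation passes electrons from NADH and succinate along complexes I to IV of the mitochondrial inner membrane to oxygen, and ATP synthase uses the proton gradient that this builds. Complexes I, III, IV and V combine proteins made in the cytosol from nuclear genes with proteins made inside the mitochondrion from its own genome, so their assembly draws on both genomes. Mouse oocytes carry a large maternal store of mitochondria, mitochondrial DNA is not replicated during most of the cleavage stages, and the embryo relies on pyruvate before it begins to use glucose around compaction, while transcription from its own nuclear genome starts in earnest at the late 2-cell stage.

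The study sequenced full-length cDNA of single blastomeres with HIT-scISOseq, in which amplified cDNAs are joined into long PacBio molecules, in 4 runs, of which 3 held the pooled single cells described here and the other intact and split oocytes. Per the labels the embryos were DBA/2J x C57BL/6J, and the design text gives C57BL/6J females of 6 to 8 weeks and DBA/2NCrl males, all females having received pregnant mare's serum gonadotropin (PMSG) and later human chorionic gonadotropin (hCG). Collection was at 20 h after hCG for metaphase II oocytes of non-mated females, 22 to 24 h for zygotes, 30 to 32 h for early 2-cell embryos (E2C), 46 to 48 h for late 2-cell embryos (L2C), 54 to 56 h at the 4-cell stage, 68 to 70 h at the 8-cell stage, 78 to 80 h at the 16- and 32-cell stages and 88 to 90 h for early blastocysts. Mouse embryonic stem cells (mESC) of the E14 line were included as an established cell line. The gene table held 161 cells, of which 121 had a named source: 10 oocytes, 9 zygotes, 5 embryos at E2C, 6 at L2C, 5 at the 4-cell stage and 4 each at the 8- and 16-cell stages. The column names of the 22 32-cell, 13 blastocyst and 5 mESC cells give no embryo, so these 40 cells entered no test. Cells of 1 embryo were averaged, and the embryo was the replicate. An embryo number was taken to name 1 embryo of its stage across the runs, which the column names do not state, and if numbers were used again in another run the n and the p-values from E2C to the 16-cell stage would change. Nothing in the labels says which embryos shared a mother, so p-values measure the spread between these embryos.

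Depth ran from 4985 to 389775 UMIs (unique molecular identifiers, which count molecules) in a cell, with stage medians falling from 195670 in oocytes and 246466 in zygotes to 91608 at E2C, 58097 at L2C and 32466 at the 4-cell stage. The shallowest cell of any stage still held 119 UMIs of nuclear members. The sum of 6 oocyte markers (Zp3, Gdf9, Bmp15, Nlrp5, Zar1 and Oosp1) was 1792 to 2364 copies per 100,000 in oocytes and 46.09 to 152.9 at L2C, and the sum of 5 pluripotency markers was 136.5 to 283.5 in mESC. The 5 of 8 cumulus and granulosa markers present in the table summed to at most 7.129 copies, in a zygote, and were at 0 at the 8- and 16-cell stages. Of 4 late 2-cell markers, the sum was 0 to 30.32 at E2C and 4.832 to 17.16 at L2C, so these markers did not separate the labelled stages. Libraries that stood apart were the single cell that made up L2C embryo 1 (17971 UMIs, mitochondrial sum 18864 copies, against 8595 to 15662 in the other L2C cells) and a cell of 16-cell embryo 2 (14513 UMIs, mitochondrial sum 75.79 copies, against 1755 to 7614 in the others).

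All levels are copies of a gene per 100,000 UMIs of a cell, which is CPM divided by 10. A level is therefore a share, and a change of 1 gene cannot be told apart from an opposite change in the total RNA of the cell. The summed level of the 89 nuclear members was 827.4 ± 160.9 copies in oocytes (SD, n = 10), 952.8 ± 181.0 in zygotes (n = 9) and 1035 ± 194.4 at E2C (n = 5). It was 1989 ± 365.8 at L2C (n = 6), 2373 ± 99.13 at the 4-cell stage (n = 5), 3411 ± 237.3 at the 8-cell stage (n = 4) and 3299 ± 704.3 at the 16-cell stage (n = 4). The 5 E2C embryos had sums of 827.0, 878.0, 1027, 1139 and 1304 copies, and the 6 L2C embryos ran from 1519 through a median of 2023 to 2436, so the groups did not overlap. The 4-cell embryos, at 2275, 2282, 2381, 2415 and 2513 copies, lay below every 8-cell embryo, at 3216, 3307, 3367 and 3755. Embryos of the other neighbouring stages up to the 16-cell stage overlapped.

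The summed level of the 13 mitochondrial genes followed another course. It was 4581 ± 1036 copies in oocytes, 5277 ± 1959 in zygotes and 5182 ± 1641 at E2C, reached 11798 ± 3769 at L2C, and was 7677 ± 3658, 5042 ± 3794 and 3426 ± 751.2 at the 4-, 8- and 16-cell stages. E2C embryos (3159, 4397, 4604, 6852 and 6897 copies) lay below every L2C embryo (8738 to 18864, median 10378), the highest of which was the single-cell embryo. From L2C to the 16-cell stage neighbouring stages overlapped, and the spread within a stage was wide: the 4-cell embryos were at 4191, 4906, 6074, 11262 and 11953 copies and the 8-cell embryos at 1555, 1968, 8199 and 8448. In those same 8-cell embryos the nuclear sum differed far less, between 3216 and 3755. No p is given for these sums, since the genes were chosen with earlier results of these data known.

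The ratio of the mitochondrial to the nuclear sum averaged 5.65 in oocytes, 5.54 in zygotes, 5.26 at E2C and 6.30 at L2C, where both sums were higher than before. The L2C mean includes 12.42 in the single-cell embryo, while the other L2C embryos ran from 3.887 to 6.455. The L2C median was 5.415. It was 3.27 at the 4-cell stage, 1.45 at the 8-cell stage and 1.11 at the 16-cell stage. Over single cells, the ratio averaged 1.02 at the 32-cell stage, 0.695 in blastocysts and 0.198 in mESC. The nuclear sum was 3748 ± 392.2 copies in 32-cell cells, 3996 ± 418.1 in blastocyst cells and 5541 ± 253.8 in mESC (SD over cells, which share embryos or a culture), and the mitochondrial sum was 3787, 2711 and 1091 copies. These stages each came from 1 run, so stage and run cannot be told apart there.

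**Figure D1:**
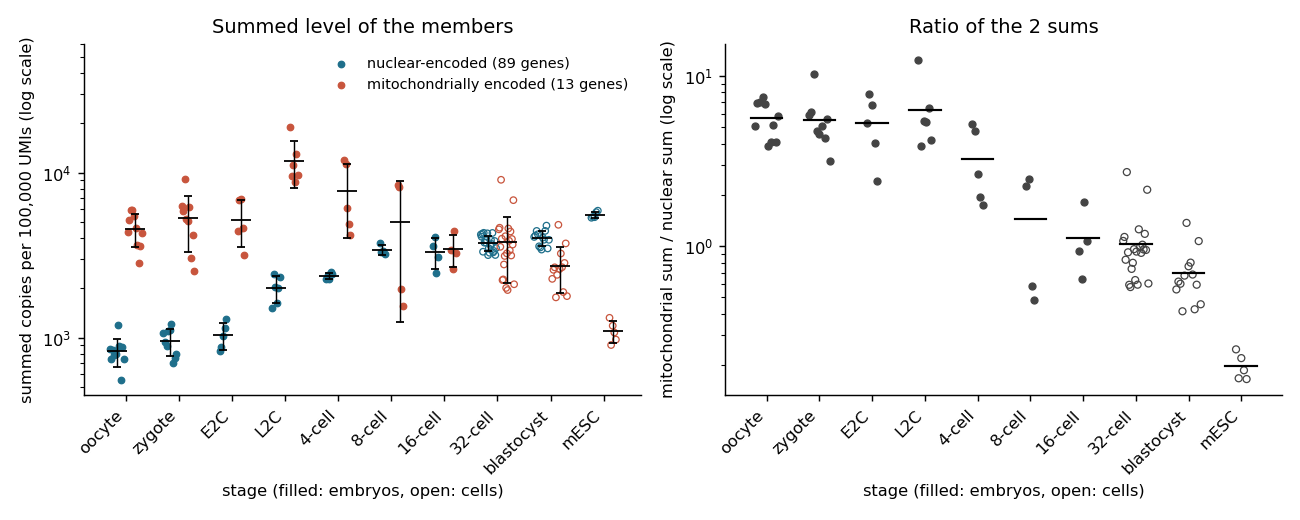
Left, summed copies per 100,000 UMIs (log scale) of the 89 nuclear-encoded and 13 mitochondrially encoded members by stage, with filled points for embryos, open points for single cells and black bars for the mean ± SD (the lower bar is limited to stay above 0). Right, the ratio of the sums (log scale, black line the mean): it stays between 5 and 6.3 on average up to L2C and is 1.11 at the 16-cell stage. The L2C mean includes the single-cell embryo at 12.42.

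Run was known for oocytes and zygotes. In oocytes the mitochondrial sum was 4345 to 5916 copies in the 5 oocytes of run 1, 4616 in the 1 of run 2 and 2836 to 4311 in the 4 of run 3. In zygotes it was 5238 to 9111 in run 1 (4 zygotes), 5120 to 6172 in run 2 (2 zygotes) and 2539 to 4167 in run 3 (3 zygotes). Run 3 was the lowest of the runs at both stages, and the part of the run in the spread of other stages was not tested. The nuclear sum was 743.8 to 850.2, 1190 and 551.9 to 893.1 copies in oocytes and 887.3 to 1096, 1116 to 1212 and 699.9 to 797.7 in zygotes of runs 1, 2 and 3. Within runs 1 and 3 the median zygote sum was 1008 against 800.1 and 749.2 against 810.5, so the direction from oocyte to zygote differed between the runs.

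Each gene was compared between neighbouring stages with limma on log2(copies + 1) of embryo values over all 11682 genes that had at least 1 copy in at least 4 embryos. Of the members, 100 passed that filter (87 nuclear and all 13 mitochondrial). A gene was called where the log2 fold change was over 1 in size and the p was under 0.01, as the study set its limits, and Benjamini-Hochberg adjusted p-values over all genes are printed beside. The fold changes are on the log2(copies + 1) scale, which understates changes of low genes. The members without a test were Ndufa4l2, a relative of Ndufa4 with 1 UMI in 1 cell, and Cox7b2, a testis relative of Cox7b with 5 UMIs in 4 cells.

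From oocyte to zygote, 2 of 87 nuclear members were called higher and 0 lower, against 2.92% and 0.325% of all genes, and 19 had an adjusted p under 0.05 (all genes 13.8%). The median log2 fold change was 0.31 for nuclear members, 0.19 for mitochondrial members and 0.07 for all genes. Atp5g2, which encodes the membrane ring subunit c of ATP synthase, had 0 to 2.5 copies in oocytes (median 0.5154) and 0.8465 to 6.645 in zygotes (median 2.751), and rose by 1.19 ± 0.25 (SE; adjusted p = 3.71e-04). Ndufa8, a complex I subunit of the membrane side, rose by 1.14 ± 0.27 (adjusted p = 1.67e-03), from a mean of 1.44 to 4.03 copies, and its call was lost without the filter on low values and without array weights. Oocytes and zygotes overlapped for both genes. With sequencing run as a block in these oocytes and zygotes, 1 nuclear member was called. None of the 13 mitochondrial genes was called with limma, 0 had an unadjusted p under 0.05, and edgeR called 0.

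From zygote to E2C, 1 nuclear member rose and 0 fell, while 4.52% of all genes were higher and 2.75% lower, and 1 nuclear and 1 mitochondrial member had an adjusted p under 0.05 (all genes 14.4%). Ndufaf4, which helps to assemble complex I, had 4.618 to 29.6 copies in zygotes (median 15.44) and 19.5, 32.25, 37.48, 42.11 and 55.91 in the E2C embryos, a rise of 1.44 ± 0.32 (adjusted p = 8.52e-04). mt-Nd3, a small subunit of complex I, fell by 1.14 ± 0.37 on the log2 scale (adjusted p = 2.65e-02) from a zygote range of 19.07 to 230.3 copies to 28.18, 29.15, 39.38, 69.21 and 81.62 in E2C. Every E2C value of mt-Nd3 lay inside the zygote range, and the call was lost without E2C embryo 1 (log2 change -0.98) or 4 (-0.91). Without E2C embryo 1, 2 or 3 the nuclear calls numbered 6, 2 and 3, and without embryo 3 there were 2 mitochondrial calls.

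At E2C to L2C, most members moved. Of 87 nuclear members, 49 rose and 6 fell (all genes 25.6% and 22.8%), and 58 had an adjusted p under 0.05 (all genes 58.9%). The median was 1.38 for nuclear members against 0.03 for all genes. Of the 13 mitochondrial genes, 8 rose and 0 fell, 11 had an adjusted p under 0.05, and the median was 1.14. Embryos of the stages did not overlap for 38 nuclear and 6 mitochondrial members (all genes 27.6%). By complex, 20 of 38 tested complex I genes rose and 2 fell (median 1.22), 5 of 8 complex III subunits rose (median 2.29), 7 of 16 complex IV subunits rose and 2 fell (median 0.48), 12 of 17 ATP synthase genes rose (median 1.70), and of the 8 Ndufaf genes 5 rose and 2 fell (median 1.41). Of the 2 complex I falls, 1 was Ndufa4, which its symbol places there.

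The oocyte marker sum was 553.3 to 754.2 copies at E2C and 46.09 to 152.9 at L2C. The part of that loss of other transcripts in the higher shares of the members was not tested. With edgeR on recovered UMIs, whose TMM factors had a median of 0.809 in oocytes and 1.297 at L2C, the median of all genes was -0.14, against 0.03 with limma. That fit differs from limma in its model and its input as well as in scaling.

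**Figure D2:**
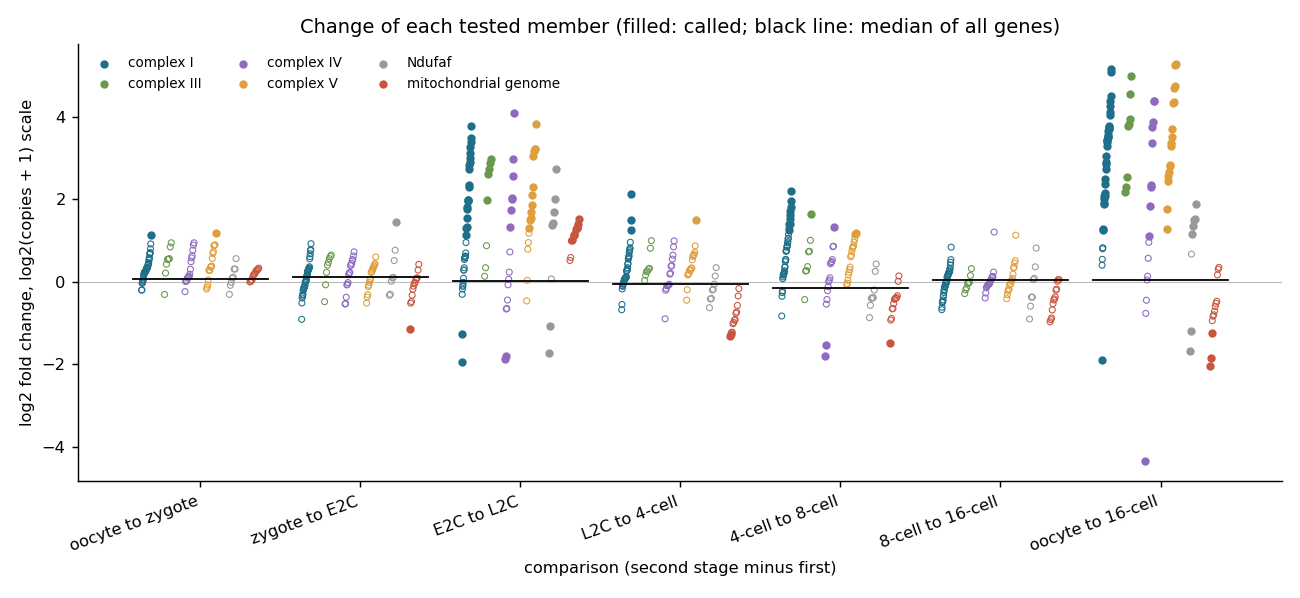
The log2 fold change (second stage minus first, log2(copies + 1) scale) of each of the 100 tested members in 7 comparisons, coloured by complex, with filled points for called genes and a black line for the median of all genes. The points spread upward at E2C to L2C, where the nuclear median is 1.38 and that of all genes 0.03.

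Among complex IV subunits, the largest rise was that of Cox4i1, the regulatory subunit IV found in most tissues. It had 1.955, 2.581, 3.997, 4.347 and 7.759 copies in E2C embryos and 61.21 to 115.6 in L2C embryos (median 67.05), with no overlap, a rise of 4.10 ± 0.45 (limma, adjusted p = 7.61e-12). Atp5g1, which encodes the same mature subunit c as Atp5g2 and Atp5g3, had 4.051, 10.75, 11.8, 14.03 and 14.28 copies at E2C and 66.77 to 218.1 at L2C (median 152.2), a rise of 3.81 ± 0.34 (adjusted p = 1.41e-14). These genes were each under 15 copies in every E2C embryo and above 60 in every L2C embryo. Atp5g1 was then the leading nuclear member, with 7.47% of the nuclear sum.

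A further 4 complex I genes completed the largest rises. Ndufa7 and Ndufs8, the latter a carrier of iron-sulphur clusters in the peripheral arm, rose by 3.79 ± 0.46 (adjusted p = 3.11e-10) and 3.48 ± 0.40 (adjusted p = 3.45e-11). Ndufs8 had 0.4826, 0.6515, 0.7095, 1.018 and 1.087 copies in E2C embryos and 14.21 to 23.1 in L2C embryos (median 17.1). Ndufa7 had 0 to 2.998 copies at E2C and 16.69 to 40.21 at L2C (median 29.44). Ndufb7 rose by 3.38 ± 0.45 (adjusted p = 2.83e-09) to a mean of 22.85 copies, and Ndufc1 by 3.28 ± 0.45 (adjusted p = 5.61e-09) to 22.78. For all 4 genes the E2C and L2C embryos did not overlap.

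The 6 nuclear members that fell at this step were Ndufab1, Cox6b2, Cox6a2, Ndufaf4, Ndufa4 and Ndufaf2. Ndufab1 is the mitochondrial acyl carrier protein, which also serves fatty acid and iron-sulphur synthesis, and it had 53.54, 65.99, 66.49, 79.48 and 110.7 copies at E2C and 11.13 to 25.35 at L2C (median 17.39), a change of -1.96 ± 0.29 (adjusted p = 4.79e-08). Cox6b2, the testis form of a complex IV subunit, had 42.73, 60.65, 64.78, 72.08 and 108.0 copies at E2C and 10.68 to 33.39 at L2C (median 19.44), a change of -1.86 ± 0.36 (adjusted p = 1.01e-05). Neither gene overlapped between the stages. Ndufaf4, which had risen between zygote and E2C, was at 5.716 to 21.62 copies in L2C embryos (median 11.39) and fell by 1.74 ± 0.44 on the log2 scale (adjusted p = 5.38e-04). Ndufaf2, another complex I assembly factor, changed by -1.09 ± 0.33 (adjusted p = 4.30e-03) and lost its call without E2C embryo 4 (-0.94) and without array weights (-0.98). Ndufa4, long listed under complex I and now known as a complex IV subunit, changed by -1.26 ± 0.46 (adjusted p = 1.67e-02) and lost its call without E2C embryo 4 (-1.02) or 5 (-1.08). Cox6a2, the heart and muscle form of its subunit, had 1.745, 1.945, 3.169, 3.26 and 4.95 copies at E2C and was at 0 in 5 of 6 L2C embryos, with 0.7899 in the other (-1.79 ± 0.37, adjusted p = 3.87e-05).

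Of the mitochondrial genes, mt-Nd4, a core proton-pumping subunit of complex I, had 224.6, 331.3, 346.2, 564.2 and 782.3 copies at E2C and 939.8 to 1948 at L2C (median 1067). It rose by 1.40 ± 0.37 (limma, adjusted p = 1.01e-03) with no overlap. mt-Nd3 (1.52), mt-Nd1 (1.305), mt-Nd2 (1.304), mt-Co2 (1.29), mt-Co1 (1.14), mt-Nd5 (1.13) and mt-Atp6 (1.01) also rose, with adjusted p-values between 2.42e-03 and 1.59e-02. The 5 genes that were not called were mt-Nd4l (1.17), mt-Co3 (1.03), mt-Atp8 (0.99), mt-Cytb (0.59) and mt-Nd6 (0.52), the gene on the other strand, whose means were 4.07 and 3.63 copies. The number of called mitochondrial genes was 3 without E2C embryo 1, 3 without E2C embryo 4, 4 without E2C embryo 5 and 5 without the single-cell L2C embryo, all in the same direction. With the edgeR quasi-likelihood test on recovered UMIs, 0 were called at these limits and 6 had an adjusted p under 0.05.

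From L2C to the 4-cell stage, 4 nuclear members rose and 0 fell, against 2.41% and 4.28% of all genes, and 1 had an adjusted p under 0.05 (all genes 3.17%). Ndufa3, a small complex I subunit, had 0 to 6.977 copies at L2C (median 2.61) and 8.65, 12.12, 13.92, 22.02 and 42.57 at the 4-cell stage, with no overlap and a rise of 2.12 ± 0.48 (adjusted p = 6.86e-03). Ndufv3 (1.49), Atp5d (1.49) and Ndufv1 (1.25) were called with adjusted p-values of 0.0814 to 0.0847, and leaving out single 4-cell embryos removed some of these calls, Atp5d without embryo 3, and Ndufv1 and Ndufv3 without embryo 4 or 5. mt-Atp8 (-1.31, adjusted p = 0.132) and mt-Co2 (-1.27, adjusted p = 0.108) were called lower, with overlapping embryos. The median was -0.94 for mitochondrial members, 0.24 for nuclear members and -0.06 for all genes. The number of mitochondrial genes called lower was 6 without 4-cell embryo 1, 5 without embryo 2 and 0 without embryo 4 or 5, and 1 without L2C embryo 1. With edgeR 0 were called lower, and 7 had an unadjusted p under 0.05 with limma.

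From the 4- to the 8-cell stage, 13 nuclear members rose and 2 fell, while 4.47% of all genes were higher and 10.5% lower, and 13 had an adjusted p under 0.05 (all genes 15.5%). The nuclear median was 0.46 and that of all genes -0.16. Complex I supplied 9 of the 13 (of 38 tested, median 0.75), ATP synthase 2, complex III 1 and complex IV 1. Only 3 of the 13, Atp5j, Ndufa12 and Ndufa9, had also been called at E2C to L2C, and the other 10 were Atp5l, Cox6c, Ndufa3, Ndufa5, Ndufb5, Ndufb8, Ndufs4, Ndufs5, Ndufs6 and Uqcrb.

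Ndufs6, a zinc-binding subunit of the peripheral arm, had 3.094, 4.846, 7.045, 7.344 and 13.04 copies in 4-cell embryos and 28.63, 32.31, 36.76 and 37.83 in 8-cell embryos (2.19 ± 0.50, adjusted p = 1.13e-03). Ndufb8, in the membrane arm, had 4.977, 6.662, 7.891, 11.89 and 14.93 and then 28.34, 33.39, 34.61 and 43.27 copies (1.96 ± 0.46, adjusted p = 1.27e-03). Uqcrb, which binds ubiquinone in complex III, had 12.76, 17.14, 26.53, 30.56 and 32.7 and then 66.17, 75.25, 76.53 and 102.9 copies (1.64 ± 0.43, adjusted p = 4.74e-03). None of these genes overlapped between the stages. Ndufa12, Ndufa3 and Ndufs5 rose by 1.72 ± 0.49 (adjusted p = 1.02e-02), 1.82 (3.15e-03) and 1.62 ± 0.51 (2.13e-02). Ndufa3 was at 35.05, 45.78, 60.68 and 61.95 copies at the 8-cell stage, where the lowest embryo overlapped the highest 4-cell embryo.

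The 2 nuclear members that fell from the 4- to the 8-cell stage were both tissue-restricted forms of complex IV subunits. Cox6b2 had 12.82, 13.48, 13.96, 14.93 and 24.71 copies in 4-cell embryos and 2.618, 2.672, 4.764 and 5.841 in 8-cell embryos (-1.80 ± 0.38, adjusted p = 4.90e-04). Cox4i2, the lung and low-oxygen form of subunit IV, had 1.814, 2.924, 4.937, 10.17 and 32.54 copies at the 4-cell stage and 0, 0, 1.508 and 1.895 at the 8-cell stage (-1.53 ± 0.44, adjusted p = 9.91e-03), with overlap. Of the mitochondrial genes mt-Nd4l, the smallest of the complex I core subunits, fell, from 29.25, 31.1, 35.75, 45.24 and 76.84 to 6.806, 7.216, 15.23 and 18.4 copies (-1.48 ± 0.49, adjusted p = 2.88e-02), and the mitochondrial median was -0.43. The number of nuclear calls was 7 without 8-cell embryo 1, 9 without 4-cell embryo 5 and 35 with edgeR. The share of all genes that edgeR called was not counted, so the 35 cannot be set against it. The number of mitochondrial calls was 6 without 8-cell embryo 1, 4 without embryo 2 and 0 without embryo 4. Among all called genes the share that was higher was 29.9% with limma and 50.5% with edgeR.

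From the 8- to the 16-cell stage no member was called in the limma fit (0 of 87 and 0 of 13, all genes 1.90% higher and 1.46% lower), and 0 had an adjusted p under 0.05 (all genes 1.44%). The medians were -0.02 for nuclear members, -0.42 for mitochondrial members and 0.03 for all genes. An unadjusted p under 0.05 was found for 4 nuclear members (3 higher, 1 lower) and 3 mitochondrial members (all lower). edgeR called 3 nuclear members higher and 0 mitochondrial genes. Without 8-cell embryo 4, 2 nuclear and 6 mitochondrial genes were called, and without any other single embryo of these stages at most 1 of each. Outer-cell markers (Cdx2, Krt8 and Krt18) summed to 11.9 to 21.31 copies in 8-cell embryos and 26.49 to 37.02 in 16-cell embryos.

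Between oocytes and 16-cell embryos, the first and last stages with named embryos, 72 of 87 nuclear members were higher and 4 lower (all genes 26.8% and 24.0%), and 82 had an adjusted p under 0.05 (all genes 65.4%). The medians were 2.80 for nuclear members, -0.71 for mitochondrial members and 0.04 for all genes. Oocytes and 16-cell embryos did not overlap for 69 nuclear members and 1 mitochondrial member (all genes 39.6%). All 17 ATP synthase genes and all 8 complex III genes rose, with medians of 3.36 and 3.79, as did 33 of 38 complex I subunits (1 fell, median 3.17), 9 of 16 complex IV subunits (1 fell, median 1.47) and 5 of 8 Ndufaf genes (2 fell, median 1.26). Of the 72 genes, 46 were also called higher at E2C to L2C, and 15 at no neighbouring step, among them Atp5a1 and Atp5b, the main subunits of the catalytic head of ATP synthase. These counts come from comparisons that share embryos.

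The largest net rise was that of Atp5g1, from 3.087 to 5.998 copies in oocytes (median 4.28) to 98.72 to 269.1 in 16-cell embryos (5.29 ± 0.27, adjusted p = 5.12e-25). Atp5j, coupling factor 6 of the stalk of ATP synthase, had 0.4871 to 6.6 copies in oocytes (median 1.814) and 86.95, 100.3, 109.7 and 112.6 at the 16-cell stage (5.25 ± 0.33, adjusted p = 7.49e-22). Ndufa12 (5.15 ± 0.37), Ndufc1 (5.10 ± 0.36), Uqcr10 (4.99 ± 0.34), a small subunit of complex III, and Atp5h (4.75 ± 0.32), a stalk subunit, completed the 6 largest. For all 6 the oocytes and 16-cell embryos did not overlap. The 4 that fell were Cox6b2 (-4.36), Ndufab1 (-1.89), Ndufaf2 (-1.67) and Ndufaf4 (-1.19). The Ndufaf4 call was lost without 16-cell embryo 1 (-0.746) or 2 (-0.992), without array weights (-0.954) and without the filter on low values.

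The mitochondrial genes did not share the net rise of the nuclear members. mt-Nd4l (-2.05 ± 0.36, adjusted p = 1.60e-06), mt-Atp8 (-1.86 ± 0.35, adjusted p = 3.81e-06) and mt-Nd5 (-1.24 ± 0.33, adjusted p = 8.14e-04) fell, and the other 10 were not called, with values from -0.95 (mt-Nd6) to 0.35 (mt-Nd1). The mt-Nd5 call was lost without 16-cell embryo 1 (-0.947) or 2 (-1.05, limma, unadjusted p = 0.0106). mt-Atp8, the short accessory subunit of ATP synthase, had 39.46 to 107.5 copies in oocytes (median 65.95) and 10.99, 14.47, 31.37 and 37.03 in 16-cell embryos, without overlap. As a share of the mitochondrial sum of the gene table, mt-Atp8 went from 1.49% in oocytes to 0.685% at the 16-cell stage and 0.340% in blastocysts. mt-Nd1 went from 8.98% in oocytes to 12.8% at L2C and 15.7% at the 16-cell stage, and mt-Nd4 from 5.99% to 10.3% and 8.92%. The largest shares in oocytes and at the 16-cell stage were those of mt-Atp6 (24.3% and 19.3%), mt-Cytb (20.7% and 16.4%) and mt-Co1 (16.6% and 15.8%). At the 8-cell stage mt-Nd1 (16.9%) was above mt-Co1 (14.1%), and at the 32-cell stage mt-Nd1 (16.5%) was above mt-Co1 (16.0%) and mt-Cytb (10.7%).

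**Figure D3:**
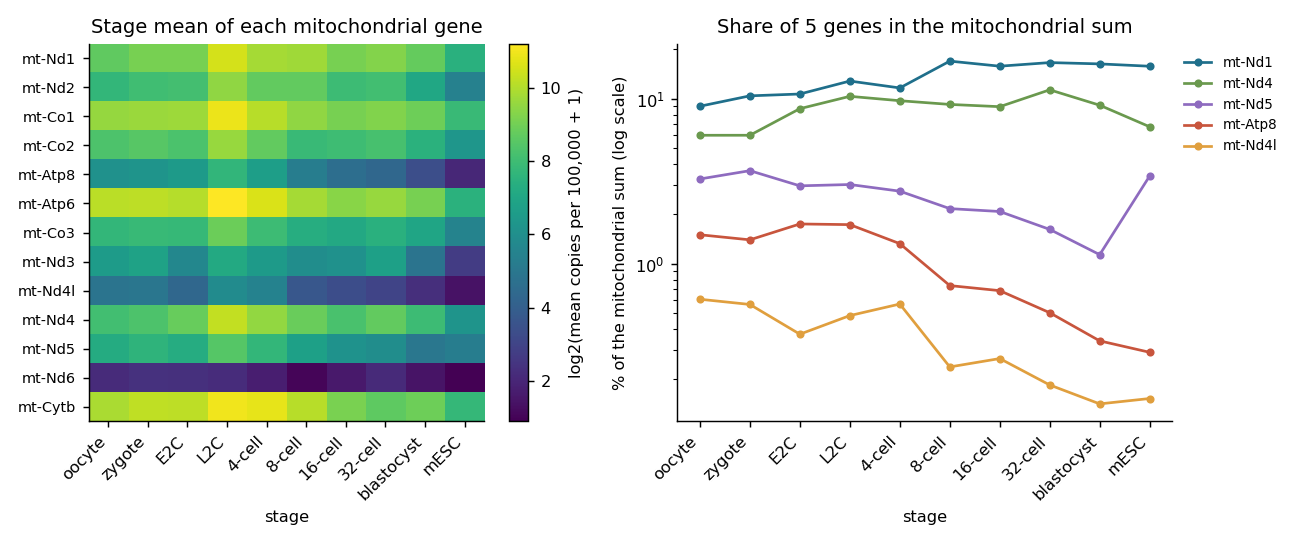
Left, the stage mean of each of the 13 mitochondrial genes as log2(copies + 1), genes in rows and stages in columns. Right, the share of 5 of them in the mitochondrial sum (percent, log scale): mt-Nd1 goes from 8.98% in oocytes to 15.7% at the 16-cell stage, while mt-Atp8 goes from 1.49% to 0.685%. All values are those of the gene table.

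How mitochondrial molecules are divided among genes depended on the table. In the first 3 runs the isoform table gave mt-Co2 831.0 copies and mt-Atp6 238.8 in oocytes, where the gene table gave 316.1 and 1112. mt-Atp8 and mt-Atp6 are carried on 1 transcript and their coding sequences overlap by 43 bases, and those of mt-Nd4l and mt-Nd4 by 7 bases. The junction of the first pair is shown to make plain that 1 molecule can carry both coding sequences, with the letters of the overlap, which are also the start of mt-Atp6, in capitals (mm10, GENCODE, plus strand, mitochondrial genome 7912 to 7969).
mt-Atp8 end and mt-Atp6 start: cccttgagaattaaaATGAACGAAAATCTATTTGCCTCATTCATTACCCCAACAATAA
mt-Co2, mt-Atp8 and mt-Atp6 together held 1497 copies in the gene table and 1075 in the isoform table in oocytes, and all 13 genes held 4582 and 5470. For L2C cells the totals were 11156 and 13810, and for 16-cell cells 3259 and 3739, so the order of these stages was the same in both tables. Between 27.6% and 40.1% of mitochondrial isoform UMIs of a stage came from isoforms that covered at least 50% of 2 or more genes, and 61.6% to 91.8% of mt-Nd1 isoform UMIs started in mt-Rnr2, the large ribosomal RNA that lies before it. The tables also differed for mt-Nd3, at 92.88 copies in the gene table and 24.49 in the isoform table in oocytes. In 16-cell cells mt-Nd3 had 57.9 and 17.82 copies. Values of single mitochondrial genes, among them mt-Co2, mt-Atp6, mt-Atp8, mt-Nd3, mt-Nd4l and mt-Nd4, are uncertain to that extent.

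Several complex IV subunits and subunit c of ATP synthase exist as paired or triple genes, and the order of the Cox6b pair turned over. In oocytes Cox6b2 had 36.53 to 144.6 copies (median 94.26) and Cox6b1, the form found in most tissues, 2.436 to 12.5 (median 5.592). In 16-cell embryos Cox6b2 had 0.9912, 2.598, 4.424 and 4.642 copies and Cox6b1 53.43, 55.85, 103.0 and 126.5. Cox6b2 was the higher of the pair in every oocyte and Cox6b1 in every 16-cell embryo, and their net changes were -4.36 ± 0.29 (adjusted p = 8.85e-21) and 3.76 ± 0.30 (adjusted p = 2.48e-17). At L2C, Cox6b1 averaged 47.3 copies, a rise of 1.74 ± 0.37 (adjusted p = 6.50e-05) from E2C, and Cox6b2 21.35.

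Cox4i1 averaged 4.92 copies in oocytes and 97.2 in 16-cell embryos (4.38, adjusted p = 6.71e-17). Cox4i2 was low throughout except at L2C, where it had 1.004 to 9.647 copies (median 6.302, a rise of 2.00 ± 0.41 over E2C, adjusted p = 2.69e-05), and at the 4-cell stage, and it was listed at 0 in all blastocyst and mESC cells. Cox6a1 rose at E2C to L2C (2.03 ± 0.44, adjusted p = 7.92e-05) from 12.66 to 53.82 copies, while Cox6a2 was at 0 in every 4- and 8-cell embryo. Cox7a1, a heart and muscle form, rose at the same step (1.33, adjusted p = 4.62e-04) but reached only 2.37 copies, against 50.68 of Cox7a2. Cox7a2 and Cox7a2l, the latter a factor that joins complexes III and IV, were called between oocyte and 16-cell embryos only (1.11 and 1.83). The Cox7a2 call was lost with edgeR (0.978), without array weights (0.977) and without 16-cell embryo 1 (0.861) or 2 (0.845). Cox7b rose at E2C to L2C by 2.97 (adjusted p = 4.40e-07), from 3.23 to 35.04 copies.

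Cox8a, the leading nuclear member of oocytes with 20.3% of the nuclear sum, was called at no comparison. It had 124.2 to 254.1 copies in oocytes (median 156.2) and averaged 104.5 in 16-cell embryos. Cox8c, its testis relative, averaged under 1 copy at every stage, and Cox8b was not analysed here. The other nuclear members that were called at no comparison were Cox5a, Cox5b, Ndufa6 and Ndufb6, and Cox5a averaged 71.8 copies in oocytes and 95.2 in 16-cell embryos. The 5 leading nuclear members held 54.6% of the nuclear sum in oocytes (Cox8a, Cox6b2, Cox5a, Ndufab1 and Atp5b), 25.0% at L2C and 20.7% at the 16-cell stage. The number of nuclear members with a mean of at least 10 copies was 15 in oocytes, 21 at E2C, 55 at L2C and 69 at the 16-cell stage.

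Of the subunit c genes Atp5g1 had the highest mean already in oocytes, and its lead in copies was far wider from L2C on. At E2C Atp5g2 averaged 2.74 and Atp5g3 2.43 copies. Atp5g1 averaged 4.27 copies in oocytes, 10.98 at E2C, 148.7 at L2C and 192.8 at the 16-cell stage. Atp5g2 averaged 0.785 and 7.70 copies in oocytes and 16-cell embryos (2.44, adjusted p = 5.20e-08) and Atp5g3 1.36 and 19.01 (3.30, adjusted p = 2.99e-11). In blastocyst cells Atp5g1 averaged 171.0, Atp5g3 27.97 and Atp5g2 12.97 copies. Reads of near-identical copies and processed pseudogenes of these small genes could have been divided among loci, so the levels of paralogues carry that uncertainty.

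**Figure D4:**
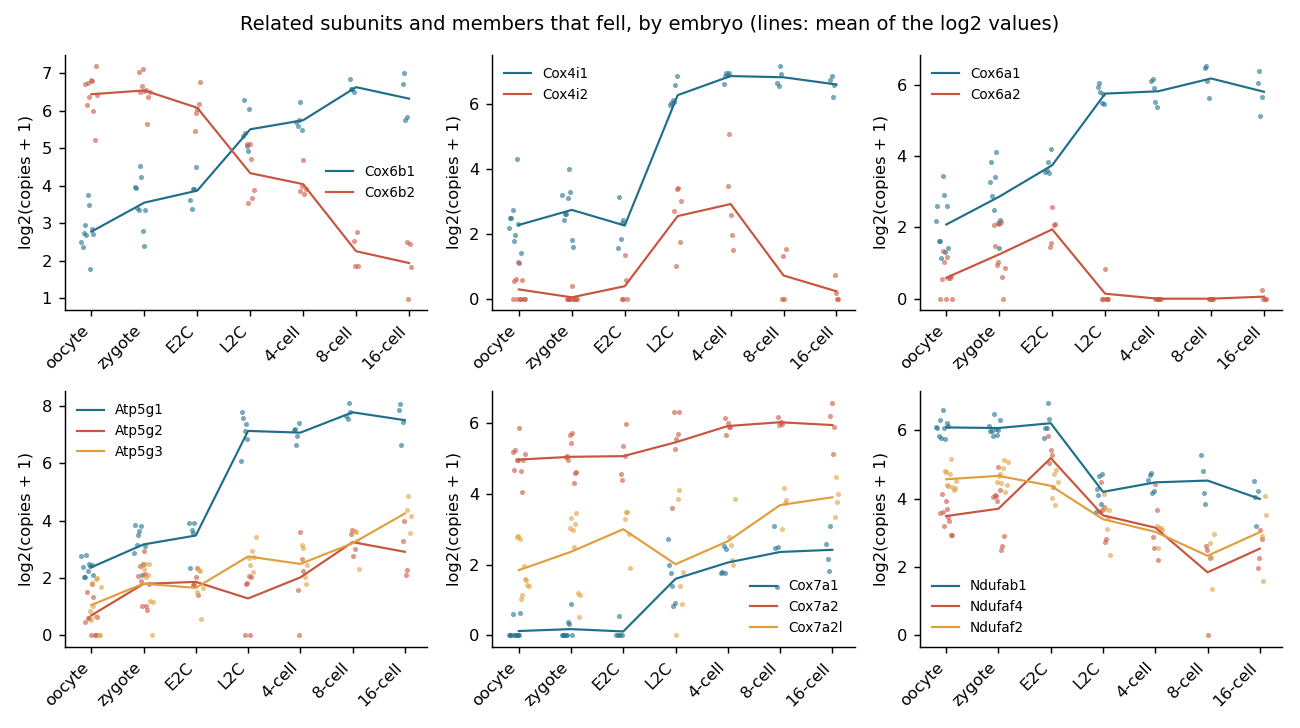
The log2(copies + 1) of related subunits and of 3 members that fell, by embryo from oocyte to the 16-cell stage, with a line through the mean of the log2 values. The lines of Cox6b1 and Cox6b2 cross between E2C and L2C, with means of 47.3 and 21.35 copies at L2C.

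Full-length reads also gave the isoforms of the members. The isoform table held 782 isoforms of members among 68012, of which 620 were nuclear (240 full-splice matches to annotated transcripts, 233 incomplete matches, 58 with known junctions in a new combination and 89 with a new junction). Full-splice matches took 83.3% to 88.8% of the UMIs of nuclear members at each stage. The 3 genes described next were chosen after their values were seen, and their shares are a description without a test.

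Ndufv3, a subunit of the NADH-binding tip of complex I, has a long internal coding exon of 1092 bases at chr17:31527310-31528401 (mm10, plus strand), which the usual form skips. The junctions are printed to show what distinguishes the forms, with the last 15 letters of the exon before in lower case and the first 15 of the exon after in capitals.
Ndufv3 long exon skipped: aaagtgtgctcaaagAGCCCGAGCCGACTG
Ndufv3 long exon included: aaagtgtgctcaaagATGTGGGAGCAGAGG
Ndufv3 out of the long exon: cggccgacacacaggAGCCCGAGCCGACTG
Counted with the exon was every molecule that holds the end of that exon. These include an isoform that begins inside the exon, at 31527429, and lacks the junction into it. Its mean was 0.4 copies, against 0.8181 for the 4-exon form. The form with the exon took 19 of 36 UMIs of both forms at L2C (52.8%) and 26 of 75 at the 4-cell stage (34.7%). It took 4 of 222 at the 8-cell stage (1.80%), 3 of 284 at the 16-cell stage (1.06%) and 0 of 121 in blastocysts, which allows a share of up to 2.48%. Before L2C it took 1 of 9 UMIs in oocytes, 1 of 26 in zygotes (3.85%) and 1 of 4 at E2C. In embryos with at least 10 UMIs, the share was 27.3% and 64.3% in 2 L2C embryos, 24.0%, 40.0% and 41.7% in 3 4-cell embryos and at most 4.00% in 3 8-cell embryos, so these 4- and 8-cell embryos did not overlap. Below 10 UMIs were 4-cell embryos 2 (0 of 6) and 3 (5 of 7) and 8-cell embryo 3 (0 of 8). The 16-cell embryos were at 0 of 137, 0 of 128, 1 of 11 and 2 of 8 UMIs.

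Ndufa7 has an annotated short transcript that reads on past its second exon and ends there, without the last exons. The printed junctions compare the letters that follow the second exon (chr17:33825636-33825650, mm10, plus strand) in the long and the short form, in capitals.
Ndufa7 long, second exon spliced on: ggagatcgccaagcgGACCCAGCCACCTCC
Ndufa7 short, second exon read through: ggagatcgccaagcgGTGAGCAGGCCGTGC
The long form as counted takes in a 3-exon isoform without the second exon (mean 4.608 copies, against 23.37 for the 4-exon one). Other Ndufa7 isoforms, with 31 UMIs at L2C and 25 at the 4-cell stage, are left out of the shares. The short form took 64 of 133 UMIs of both forms at L2C (48.1%) and 59 of 105 at the 4-cell stage (56.2%), and then 46 of 274 at the 8-cell stage (16.8%), 76 of 409 at the 16-cell stage (18.6%), 64 of 234 in blastocysts (27.4%) and 2 of 126 in mESC (1.59%). L2C embryos were at 24.3%, 37.5%, 46.2%, 68.0% and 80.0%, 4-cell embryos at 47.4%, 60.0% and 60.6%, and 8-cell embryos at 0%, 7.14%, 19.2% and 22.5%. Embryos of the 4- and 8-cell stages did not overlap. The rise of Ndufa7 at E2C to L2C in the gene table therefore includes molecules that lack the last exons.

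Cox6c, a small nuclear subunit of complex IV, ended at either of 2 sites 101 bases apart. The extended end took 15.3% of the UMIs of both ends in oocytes (76 of 496), 12.8% in zygotes and 13.04% at E2C (45 of 345), then 53.8% at L2C (78 of 145), 62.2% at the 4-cell stage, 55.9% at the 8-cell stage and 51.7% at the 16-cell stage. E2C embryos were at 0%, 12.6%, 14.1%, 15.4% and 19.05% and L2C embryos with at least 10 UMIs at 39.1%, 45.5%, 54.0%, 61.5% and 68.8%, with no overlap. The level of Cox6c itself was called higher only from the 4- to the 8-cell stage, from 49.26 to 136.5 copies (1.32 ± 0.38, adjusted p = 1.11e-02), and between oocytes and 16-cell embryos.

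**Figure D5:**
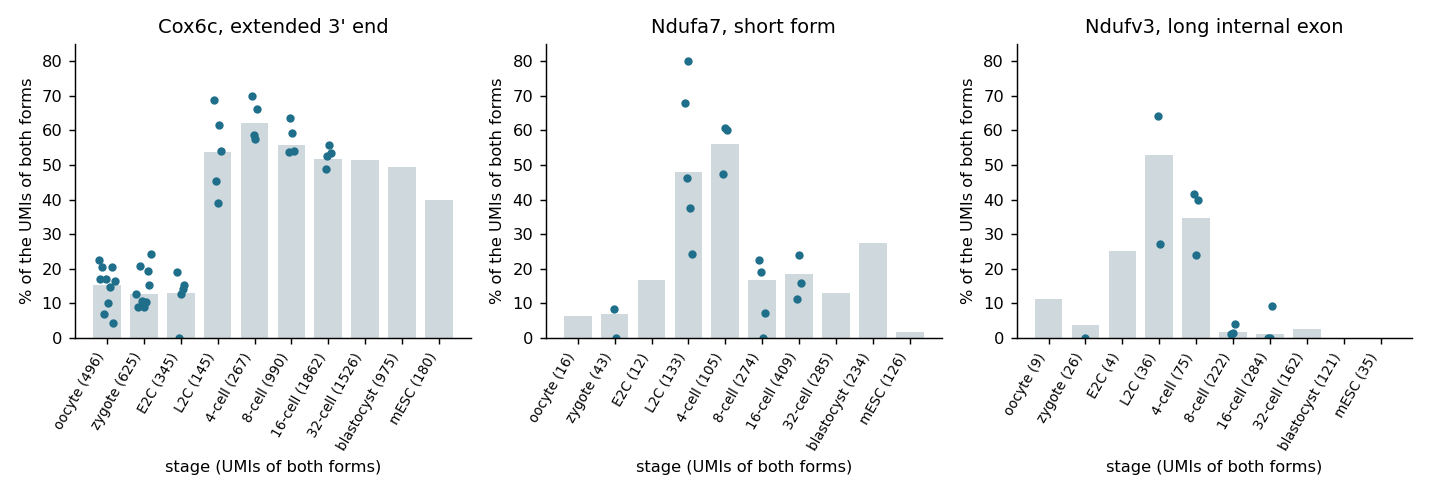
The share of 1 of 2 forms in the UMIs of both, by stage, for Cox6c (extended 3' end), Ndufa7 (short form) and Ndufv3 (long internal exon), with grey bars for all cells of a stage, blue points for embryos with at least 10 UMIs of both forms, and the UMIs of both forms in parentheses. The Cox6c bar goes from 13.04% at E2C to 53.8% at L2C and remains near that level, while the Ndufv3 bar goes from 34.7% at the 4-cell stage to 1.80% at the 8-cell stage.

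Promoters of the members were searched for the consensus letters of 4 factors known to act on respiratory genes, using RefSeq windows on GRCm38.p6 from 250 bases before to 50 after each start on both strands. Windows were found for 73 of the 89 nuclear members. The NRF1 motif GCGCATGCG, nearly its own reverse complement and counted once a gene, was in 10 of 73 (13.7%, against 1.95% of 27025 genes), and the YY1 motif AAGATGGCG in 8 (11% against 1.64%). The ETS motif CCGGAAGTG was in 2 (2.74% against 2.25%) and the ERR motif TCAAGGTCA in 1 (1.37% against 0.466%). At least 1 of the 4 was in 21 (28.8% against 6.01%). Of the 8 YY1 matches 7 lay after the start. The matches of 5 members described above are printed with the motif in capitals and 15 letters on each side, because these members differ in how they moved.
Atp5g2 (NRF1, chr15:102671066-102671104, minus strand): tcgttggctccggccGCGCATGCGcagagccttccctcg
Atp5j (YY1, chr16:84835041-84835079, minus strand): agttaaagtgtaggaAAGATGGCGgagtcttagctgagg
Cox6a1 (NRF1, chr5:115349097-115349135, minus strand): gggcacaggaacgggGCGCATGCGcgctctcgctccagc
Ndufaf4 (NRF1, chr4:24897955-24897993, plus strand): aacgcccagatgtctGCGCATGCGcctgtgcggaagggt
Atp5g3 (ERR, reverse complement, chr2:73911355-73911393, minus strand): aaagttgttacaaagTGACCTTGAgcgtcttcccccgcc
Ndufaf4, with an NRF1 match, fell at E2C to L2C, and Cox6a1, with the same letters, rose. A match is a description of the letters and not a site, and no match says nothing of the factor. In the gene table Nrf1 itself averaged 6.52 copies at E2C and 13.2 at L2C (0.80, adjusted p = 0.104), Yy1 1.66 and 12.2 (2.39, adjusted p = 1.32e-05), and Gabpa, the DNA-binding part of a GA-binding factor, 1.87 and 31.3 (3.67, adjusted p = 5.15e-12).

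Genes next to the members in the pathway were counted from lists, at E2C to L2C first, where 25.6% of all genes were called higher and 22.8% lower. Complex II, which is all nuclear and feeds electrons from succinate, had 0 of 8 genes higher and 3 lower (median -0.27). Sdha, its catalytic subunit, went from 23.58 to 1.53 copies (-3.16, adjusted p = 1.20e-13) and its assembly factor Sdhaf4 from 21.82 to 0.948 (-3.38, adjusted p = 1.92e-09). Of 13 tested carriers and transporters 6 rose and 4 fell (median 0.85), among them the phosphate carrier Slc25a3 (2.505), cytochrome c1 Cyc1 (2.19), Vdac2 (-2.35) and Vdac3 (-1.35). Cyc1 is a complex III subunit that the symbol rule leaves out of the members. Of 31 assembly factors outside the symbol rule 15 rose and 2 fell (median 1.10), with Uqcc3 (4.25), Sco2 (3.03), Cox10 (-1.79) and Nubpl (-1.53) at the ends.

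Of 21 genes that transcribe, replicate or process the mitochondrial genome, 10 rose and 3 fell at this step (median 0.85). Slirp, which stabilises mitochondrial mRNA, rose by 3.07, the elongation factor Tefm by 3.03, Tfam, which packages mitochondrial DNA, by 1.47 and the RNA polymerase Polrmt by 1.52. Mtpap, the poly(A) polymerase of mitochondria, changed by -2.62 and Fastkd2 by -1.29. Of 9 tested nuclear regulators 5 rose and 1 fell (median 1.15), with Gabpa and Pprc1 (3.43) highest and Esrrg (-1.65) the one that fell. Of 23 genes of the tricarboxylic acid cycle and pyruvate entry 9 rose and 6 fell (median 0.04), from the pyruvate carrier subunit Mpc2 (3.99) and malate dehydrogenase Mdh2 (3.64) to Dlat (-3.04) and lactate dehydrogenase B, Ldhb, which went from 275.9 to 15.94 copies (-4.01, adjusted p = 9.67e-13).

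Between oocytes and 16-cell embryos, where 26.8% of all genes were higher and 24.0% lower, 3 of 8 complex II genes rose and 0 fell (Sdhb 2.78, Sdhd 1.79). Of 13 carriers 9 rose and 1 fell (Dhodh -1.58), and of 31 assembly factors 20 rose and 1 fell (Cox10 -2.10). Of 21 genes of the mitochondrial genome's handling 7 rose and 2 fell (Mtpap -2.07, Supv3l1 -1.16), of 9 regulators 3 rose and 0 fell, and of 23 genes of the tricarboxylic acid list 11 rose and 3 fell. The shares that rose ran from 33.3% (handling and regulators) to 69.2% (carriers). The complex II median was 0.58 and that of the nuclear members 2.80.

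At the other steps these lists held few calls. Tested were 8 complex II genes, 13 carriers, 31 assembly factors and 21 genes of the mitochondrial genome's handling. The other lists had 9 tested regulators and 23 tricarboxylic acid genes. From oocyte to zygote 1 carrier and 1 tricarboxylic acid gene rose (all genes 2.92% higher). From zygote to E2C 1 carrier, 2 genes of the mitochondrial genome's handling, 1 regulator and 1 tricarboxylic acid gene rose (all genes 4.52% higher). From L2C to the 4-cell stage 1 carrier and 1 tricarboxylic acid gene rose and 1 assembly factor fell (all genes 2.41% higher and 4.28% lower). From the 4- to the 8-cell stage 2 complex II genes, 2 carriers, 1 gene of the mitochondrial genome's handling, 1 regulator and 3 tricarboxylic acid genes rose, and 3 genes of the mitochondrial genome's handling, 1 regulator (Nrf1, -1.31, adjusted p = 4.39e-02) and 1 tricarboxylic acid gene fell. Of all genes 4.47% were higher and 10.5% lower at that step. From the 8- to the 16-cell stage 2 of 31 assembly factors and 2 of 9 regulators fell (all genes 1.46% lower).

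Among the genes whose stage means were most like the summed nuclear level, by Pearson's r over the 10 stages among 4185 genes with a highest stage mean of at least 10 copies, were Srrt (r = 0.992), Mrpl42, a protein of the mitochondrial ribosome (0.991), Phb2, a scaffold of the inner membrane (0.988), Anapc13 (0.987) and Mrpl17 (0.987). The points are stage means, which share libraries, runs and depth.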

How the data were processed

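The authors called consensus reads with SMRT Link, read cell barcodes and UMIs with scISA-Tools, used minimap2 to map to mm10 and gffcompare to name genes, and collapsed and classified isoforms with cDNA_Cupcake and SQANTI3. The deposited gene and isoform tables of runs 1 to 3 hold copies per 100,000 mapped reads, that is CPM divided by 10. Columns of E2C, L2C and 4-cell cells carry the same deposited unit but give no run, and were recorded as a score. The deposited isoform table of run 4 (intact and split oocytes) holds UMI counts, and the authors removed isoforms seen in fewer than 5 cells from the table of runs 1 to 3. The steps of the values gave whole UMIs for 100.0% of values (tolerance 0.1), from which depth and the edgeR test were taken.

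Cells of an embryo were averaged. limma 3.58.1 (R 4.3.3) was fitted on log2(copies + 1) with trend and array weights over all 7 stages with named embryos, 2-sided, for genes with at least 1 copy in at least 4 embryos. A call needed a p under 0.01 and a log2 change of more than 1 in either direction, and p-values were adjusted over all genes by Benjamini-Hochberg. Shares of isoform forms, sums and ratios had no test. The limit beside a share of 0 rests on 3 counts and covers counting error only. Column names give stage, embryo and cell but no barcode, so shared barcodes were not examined, no doublet caller was run and no cell was removed. The members and lists were chosen with earlier results of these data known. Named were the mitochondrial members, at each comparison every called nuclear member where 12 or fewer were called and otherwise the 6 largest rises and falls among called members with at least 10 copies at the higher stage, the paralogue groups, and from each list the 2 largest changes each way. Other members, Tfam, Polrmt, Nrf1 and Yy1 were named after their values were seen. The 6 genes most like the nuclear sum were taken by Pearson's r, and 1 of them is not reported here. The fit was tested on simulated data.

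Alternatives were a pseudocount of 0.5, no filter, no array weights, scaling without the mitochondrial genome, the edgeR 4.0.16 quasi-likelihood test with TMM on recovered UMIs, a run block for oocytes and zygotes, cells of at least 10000 UMIs (for the summed levels only), and leaving out single embryos. Embryos were left out at E2C and the 4-, 8- and 16-cell stages, and of L2C only embryo 1. Sequences came from GENCODE (mm10) and RefSeq (GRCm38.p6). Python 3.11.15, numpy 2.4.6 and pandas 2.3.3 were used.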

Additional observations from a re-analysis of the deposited data

Results flagged for a closer look

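Of 188 groups of 4 to 10 embryos examined (30 sums and shares, 158 groups of named members), 19 had a highest embryo that lay apart from the rest by Dixon's 95% limit, where chance alone gives about 1 in 20 for normal values. Groups share embryos, and Cox6a2 at L2C and Cox7a1 at E2C were at 0 in all embryos but 1. The 19 therefore cannot show an excess over that rate. The ratio of the mitochondrial to the nuclear sum was 10.27 in zygote 3, which had the highest mitochondrial sum of the zygotes (9111 copies) at 218089 UMIs, against 3.18 to 6.17 in the other zygotes. It was 12.42 in L2C embryo 1, the single cell of 17971 UMIs, which also had the highest mt-Cytb (3656 copies, next 2225) and mt-Nd4 (1948, next 1278).

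Oocyte 7 was highest for Cox4i1 (18.79 copies, next 5.679), Cox7b (8.123, next 2.736), Uqcr10 (7.616, next 3.749) and Atp5j (6.600, next 3.248), all genes that were low in oocytes. Oocyte 6 was highest for Ndufa8 (6.249, next 1.682) and Cox7a2 (57.49, next 37.04), and zygote 5 for Ndufa8 (12.38, next 6.199).

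Among 2-cell embryos, E2C embryo 3 held 13.36 copies of mt-Nd6 and 0.4738 of Cox7a1, L2C embryo 2 held 42.98 of Ndufb7 and L2C embryo 3 0.7899 of Cox6a2. Later, Cox4i2 was at 32.54 in 4-cell embryo 2 (next 10.17), Cox6b2 at 24.71 in 4-cell embryo 3 (next 14.93), Cox7b at 41.32 in 16-cell embryo 2 (next 24.33) and mt-Nd6 at 5.922 in 16-cell embryo 3 (next 0.8407).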

How the results depend on the processing

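The counts of nuclear-encoded members called at E2C to L2C and between oocyte and 16-cell embryos stayed within 1.5 times under every alternative applied to them. Each summed level changed by less than the SD of its stage under the alternatives applied to the sums. Of 67 named calls 43 held under every alternative applied to them, 24 were lost in at least 1 (13 with edgeR, 20 without 1 embryo) and 0 reversed. Single embryos were left out at E2C and the 4-, 8- and 16-cell stages, and of L2C only embryo 1. No oocyte, no zygote and no other L2C embryo was left out. No paired analysis was possible because embryo numbers only name embryos within a stage. Nuclear-encoded members called, oocyte to zygote, were 9 with a pseudocount of 0.5, 1 with no filter on low values, 1 with no array weights, 5 with edgeR and 1 with run as a block (2 without that block on the same oocytes and zygotes, added after seeing the data). With edgeR the nuclear counts were 2 at zygote to E2C, 35 at 4-cell to 8-cell and 3 at 8-cell to 16-cell. The share of all genes that edgeR called was not counted beside them. From L2C to 4-cell the nuclear counts were 2 with a pseudocount of 0.5 and 8 with no array weights, and from 8-cell to 16-cell 1 with no filter and 1 with no array weights. Mitochondrially encoded members called were 0 at zygote to E2C with no filter and 0 with no array weights, 3 at E2C to L2C with no filter and 0 with edgeR, 0 at L2C to 4-cell with no filter and 0 with edgeR, 4 at 4-cell to 8-cell with no array weights and 5 between oocyte and 16-cell with edgeR. Leaving out 1 embryo at a time gave 1 to 6 nuclear calls at zygote to E2C, 2 to 4 at L2C to 4-cell, 7 to 15 at 4-cell to 8-cell and 0 to 2 at 8-cell to 16-cell, and 0 to 2, 3 to 11, 0 to 6, 0 to 6 and 0 to 6 mitochondrial calls at zygote to E2C, E2C to L2C, L2C to 4-cell, 4-cell to 8-cell and 8-cell to 16-cell. mt-Nd6 at E2C to L2C was -0.40 with edgeR and ran from -0.072 (without E2C embryo 4) to 1.12 without 1 embryo. mt-Nd4 between oocyte and 16-cell was -0.12 with edgeR. The cause of these changes was not tested.

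With edgeR in place of limma, a change of model and input as well as of scaling, the median of all genes differed by 0.11 at oocyte to zygote, -0.11 at zygote to E2C, -0.17 at E2C to L2C, 0.11 at 4-cell to 8-cell and 0.11 at 8-cell to 16-cell. The share of called genes that were higher was 62.2% with limma and 42.4% with edgeR at zygote to E2C, and 56.5% and 71.8% at 8-cell to 16-cell. Leaving out the 16-cell cell with a mitochondrial sum of 75.79 copies, added after seeing the data, changed no count by over 1.5 times. The stage median was 32466 UMIs a cell at the 4-cell stage, where a level of 1 copy is less than 1 UMI in a cell of that depth. Which embryo came from which run is not known between E2C and the 16-cell stage.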

Other observations

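Ndufs5, a complex I subunit of the membrane arm, stood apart in mESC. It had 50.31 to 88.47 copies in the 13 blastocyst cells (mean 64.66) and was listed at 0 in 4 of the 5 mESC cells, with 7.987 copies in the other. Of 75 nuclear members with a mean of at least 10 copies in either, 57 had the higher mean in mESC, 12 were higher in every mESC cell than in every blastocyst cell, among them Cox4i1 (171.6 to 307.5 copies against 90.65 to 145.9) and Ndufa7 (83.6 to 189.2 against 26.09 to 60.94), and Ndufs5 was the only one that was lower in every mESC cell. Of all 2171 genes at that level, 53.2% had the higher mean in mESC, 6.86% were higher in every mESC cell and 6.59% lower in every mESC cell. The embryos and the mESC line differ in strain and run, which cannot be told apart from cell type here, and Ndufs5 was named after its values were seen.

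Run 4 held oocytes that were intact or whose contents were split in 2 or in 4 before amplification, with UMI counts per isoform. Nuclear members took 0.367% to 0.436% of the UMIs in 4 intact oocytes, 0.362% to 0.549% in 6 samples split in 2 and 0.412% to 0.470% in 6 split in 4. Mitochondrial members took 5.78% to 8.26%, 7.37% to 8.26% and 6.36% to 10.0%. The ranges of the ratio, 14.8 to 22.5, 13.7 to 22.0 and 13.8 to 23.4, overlapped. These shares rest on isoform rows and not on the gene table. In the isoform rows of the other runs, oocytes held 76810 mitochondrial and 15005 nuclear member UMIs in all. The ratio was thus higher in run 4, and the reason was not tested.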
